A study of Mus musculus with 2 samples.

Results

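The genes described here are 34 markers of microglia, complement components and myeloid genes, measured in left cerebral cortex of young mice. They were taken by symbol from a fixed list (homeostatic microglial, complement and myeloid genes), and all 34 were found among the 55450 genes of the gene tables, of which 21951 are protein-coding. The tissue came from 2 males, aged 36 days, of strain B6CASTF1/J (F1 offspring of a B6 and a CAST parent), with no treatment named in the labels. Each mouse gave 1 ribosome-depleted total RNA library (300 ng input) that also held ERCC spike-ins, synthetic transcripts added in known amounts. Both libraries belong to 1 group, so the values describe the tissue and the spread between its mice, called replicate 1 and replicate 2. With 1 library a mouse, an exact permutation test of 1 against 1 cannot give a p below 0.5, and none was run.

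Microglia are the resident macrophages of the brain. They depend on signalling through the CSF1 receptor, survey the tissue with motile processes guided by purinergic receptors, and clear debris and synapses by phagocytosis. Complement is a cascade of plasma and tissue proteins in which C1q or lectins recognise a target, C4, C2 and C3 are cleaved onto it, and receptors on phagocytes or the terminal pore complex act on it. In developing visual thalamus and in disease models C1q and C3 are known to tag synapses, and the C3 receptor of microglia, built from the Itgam and Itgb2 chains, takes part in their removal.

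The tissue carried most of these transcripts, at low to moderate levels. Of the 34 members, 32 were at 1 TPM or more in both mice, and 58.7% of all protein-coding genes were. TPM gives transcript abundance per length, scaled to the same sum in every library. Of these, 12 members stood at TPM 10 or more in both mice and 18 at TPM 1 to 10 in both. The median TPM over the members was 5.83 ± 0.311 (mean and SD, n = 2), against 15.985 ± 0.615 over all protein-coding genes at TPM 1 or more. The members took 12296 expected counts (estimated reads per gene) of 29915463 in replicate 1 and 12051 of 27988085 in replicate 2, or 0.0411% and 0.0431% of each library. In bulk tissue, fewer cells of a type and less RNA per cell cannot be told apart. Counts are reads and not molecules, so the intervals below cover counting error only.

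The tissue label fits its markers: all 7 excitatory neuron genes were above TPM 1 in both mice, led by Snap25, a synaptic fusion protein, with 1277 TPM in replicate 1 and 1223 TPM in replicate 2. Among the neuronal, glial and vascular marker lists, the 6 oligodendrocyte genes were the most uneven between the mice. Their median log2 ratio (replicate 1 over replicate 2) was 0.36, against 0.02 for the members and 0.04 for protein-coding genes whose counts averaged 100 or more. The part of that difference in any value below was not tested.

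**Figure D1:**
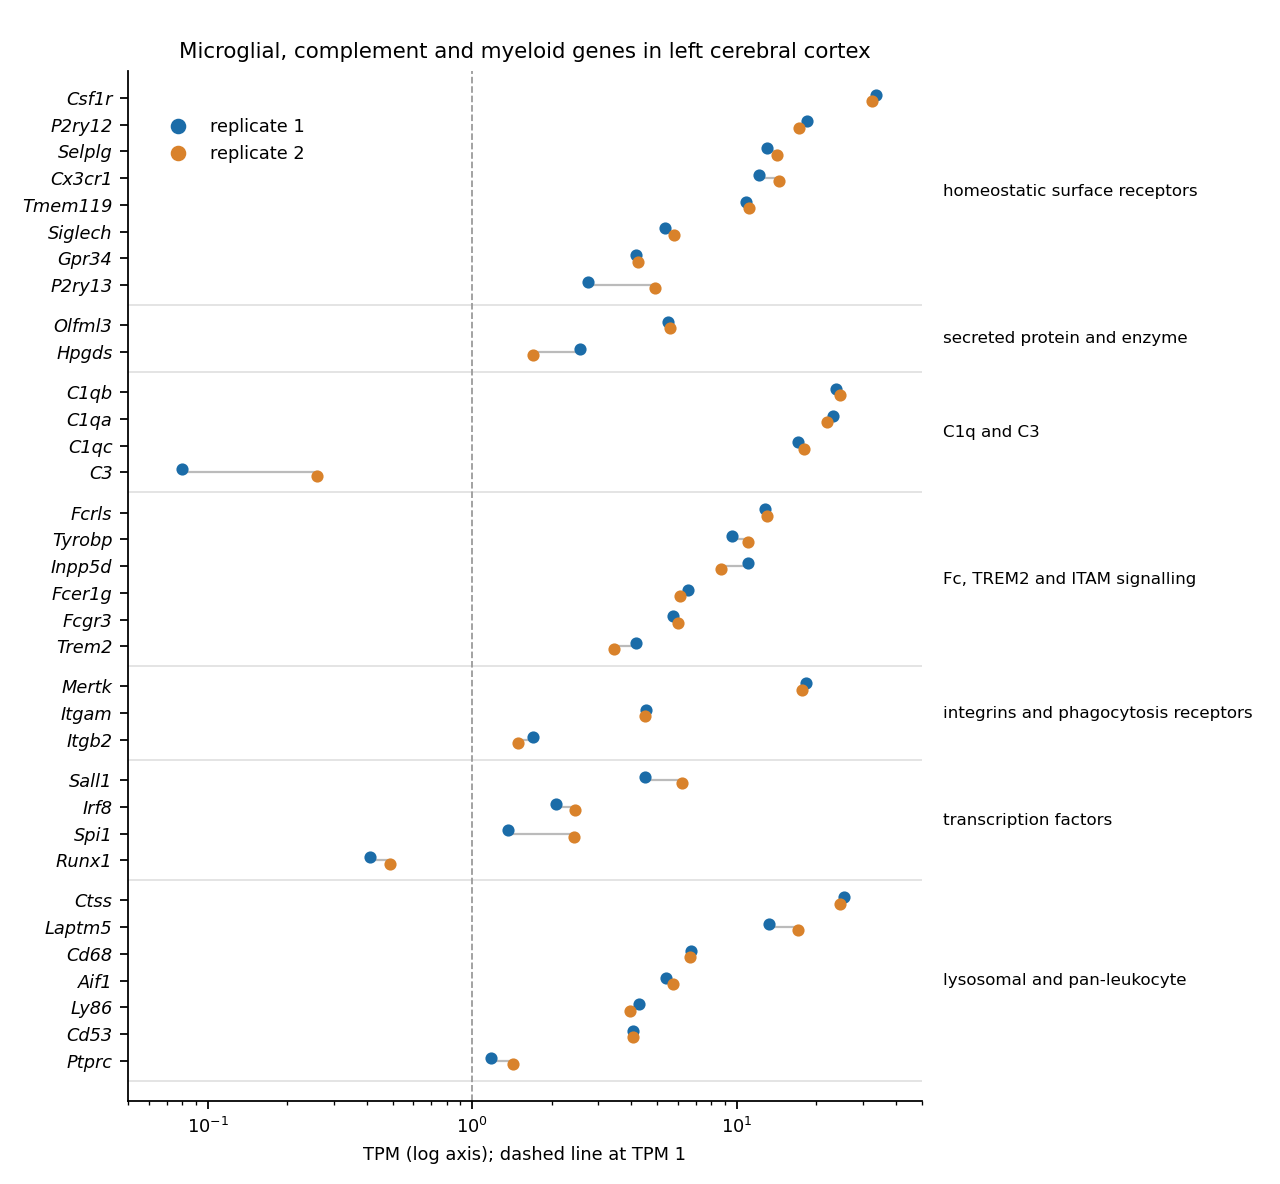
TPM of the 34 members in replicate 1 and replicate 2, on a log axis, grouped by role, with a dashed line at TPM 1 and a grey line joining the mice. Csf1r was the highest member at 33.7 and 32.5 TPM, and Runx1 and C3 were the only members left of the dashed line.

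The members lie on 16 chromosomes, and some are neighbours. On chromosome 4 the 3 C1q genes stand side by side on the minus strand (mm10, GENCODE M21), with C1qb at chr4:136880129-136886187, C1qc at chr4:136889804-136893065 and C1qa at chr4:136895917-136898803. The gaps between them are 3616 and 2851 bases. On chromosome 3, P2ry13 (chr3:59207892-59210882) lies 5389 bases from P2ry12 (chr3:59216272-59262871), both on the minus strand. On chromosome 5, Tmem119 and Selplg are 18019 bases apart. In all, 14 members overlap another annotated gene, 9 of them on the same strand. The share of all genes that do so was not computed, so these counts cannot be called high or low. Cx3cr1 overlaps Gorasp1 (15.0 and 16.0 TPM) and Csrnp1 (9.12 and 5.53 TPM) on the same strand, among others. Wdr48 (33.8 and 37.9 TPM) overlaps it on the opposite strand. Gpr34 lies inside Cask (49.1 and 49.7 TPM) and both P2ry genes inside Med12l (19.5 and 18.9 TPM), each on the opposite strand. Whether the counting used strand is not stated, so reads of such overlapping genes may not have been told apart.

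RefSeq promoter windows (build GRCm38.p6, 250 bases before to 50 after the start) were at hand for 26 of the 34 members and for 16522 protein-coding genes in all. Tmem119, Gpr34, Selplg, Tyrobp, Spi1, Csf1r, C1qa and Itgb2 had none in the table used. The letters GAGGAA, the core recognised by PU.1 (the product of Spi1), were searched on both strands. They were in a window of 17 of 26 members (65.4%), against 30.3% of the 16522 genes. Some genes have several windows, and a match in any of them was counted. TGTGGT, a RUNX core that shares no overlap with GAGGAA, was found for 34.6% of members against 17.0% of all genes, and TATAAA for 23.1% against 14.3%. Member windows were also poorer in CpG dinucleotides, with a median of 5.5 per window against 15 over all, and a GC content of 51.8% against 57.7%. A match is a string of letters, not a binding site, and these shares carry no test.

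The 250 bases upstream of the RefSeq start are shown for both neighbouring pairs, whose levels are compared below, and for Itgam, the complement receptor chain. Capitals mark GAGGAA or its reverse complement TTCCTC, all read 5′ to 3′ on the strand of the gene. They are chr4:136886201-136886450 (minus) for C1qb, chr4:136892915-136893164 (minus) for C1qc, chr3:59262986-59263235 (minus) for P2ry12, chr3:59210883-59211132 (minus) for P2ry13 and chr7:128062390-128062639 (plus) for Itgam.
C1qb: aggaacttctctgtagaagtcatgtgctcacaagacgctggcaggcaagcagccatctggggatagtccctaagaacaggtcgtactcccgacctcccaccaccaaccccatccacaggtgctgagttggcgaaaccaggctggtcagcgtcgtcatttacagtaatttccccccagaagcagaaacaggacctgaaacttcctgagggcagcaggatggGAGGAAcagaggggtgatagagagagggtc
C1qc: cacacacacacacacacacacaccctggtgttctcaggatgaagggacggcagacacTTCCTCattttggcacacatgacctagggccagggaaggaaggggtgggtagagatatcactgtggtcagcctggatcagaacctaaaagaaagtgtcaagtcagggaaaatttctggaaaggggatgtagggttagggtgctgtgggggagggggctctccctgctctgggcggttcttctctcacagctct
P2ry12: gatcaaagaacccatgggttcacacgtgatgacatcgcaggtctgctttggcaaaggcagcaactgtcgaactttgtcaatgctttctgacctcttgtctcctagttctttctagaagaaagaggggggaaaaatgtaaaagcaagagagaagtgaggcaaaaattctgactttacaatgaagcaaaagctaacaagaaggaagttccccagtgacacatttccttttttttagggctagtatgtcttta
P2ry13: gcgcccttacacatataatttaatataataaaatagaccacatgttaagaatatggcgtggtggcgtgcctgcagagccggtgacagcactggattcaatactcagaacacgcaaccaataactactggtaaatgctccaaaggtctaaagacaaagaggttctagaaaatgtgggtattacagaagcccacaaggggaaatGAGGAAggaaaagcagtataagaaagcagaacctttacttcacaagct
Itgam: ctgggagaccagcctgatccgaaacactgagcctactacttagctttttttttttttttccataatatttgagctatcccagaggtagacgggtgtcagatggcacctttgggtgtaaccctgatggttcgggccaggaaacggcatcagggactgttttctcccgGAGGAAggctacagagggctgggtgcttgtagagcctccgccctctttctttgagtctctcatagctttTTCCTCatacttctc
The first base of the match was 30 bases upstream of the start in C1qb and 193 in C1qc. It was 48 bases upstream in P2ry13, while the P2ry12 stretch held no match. Itgam had matches that began 84 and 15 bases upstream. The RefSeq starts of C1qb and P2ry12 lie outside the GENCODE gene models on which these genes were counted. That of C1qc lies inside its GENCODE model, which reaches chr4:136893065, so part of its printed stretch is within the counted gene. Its distance of 193 bases holds for the RefSeq start only.

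The receptors that define homeostatic microglia were all present, led by the growth factor receptor. Csf1r, the receptor for CSF1 and IL-34 on which microglia depend for survival, had 33.7 TPM in replicate 1 and 32.5 TPM in replicate 2 (2186 and 2035 counts). P2ry12, the ADP receptor that steers microglial processes towards injury, had 18.4 and 17.3 TPM (641 and 552 counts). Selplg, the selectin ligand PSGL-1, had 13.01 and 14.2 TPM, and Cx3cr1, the receptor for the neuronal chemokine fractalkine, had 12.1 and 14.5 TPM. Tmem119, a membrane protein that marks resident microglia, followed with 10.9 and 11.1 TPM. The order of Csf1r and P2ry12 was the same in both mice, while Selplg stood above Cx3cr1 in replicate 1 and below it in replicate 2, so that pair was not ordered beyond its spread.

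The other surface receptors of the set were lower. Siglech, a sialic acid-binding lectin, had 5.37 and 5.81 TPM, and Gpr34, a receptor for lysophosphatidylserine, had 4.16 and 4.25 TPM. P2ry13, an ADP receptor related to P2ry12, had 2.74 TPM in replicate 1 and 4.93 TPM in replicate 2, the widest relative gap of any receptor here. Of the secreted protein and the enzyme in the list, Olfml3, a secreted olfactomedin-domain protein of the matrix, had 5.49 and 5.60 TPM. Hpgds, the haematopoietic prostaglandin D synthase, had 2.56 and 1.70 TPM, with 86 and 99 counts.

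The ligands of these receptors were expressed in the same tissue. All 10 ligands listed reached TPM 1 in both mice, as did 58.7% of all protein-coding genes. Their median was 45.1 TPM in replicate 1 and 45.5 TPM in replicate 2 over the ligands listed. The highest were Apoe, a lipoprotein bound by TREM2, with 789 and 833 TPM, Cx3cl1 (fractalkine) with 309 and 275 TPM, and Cd47, a signal that restrains phagocytosis, with 113 and 103 TPM. Cx3cl1 exceeded its receptor Cx3cr1 by 4.67 on the log2 TPM scale in replicate 1 and by 4.25 in replicate 2, or 22.0-fold on average. Il34 and Csf1, named here for their receptor Csf1r after their values were seen, had 48.0 and 47.3 TPM and 6.20 and 6.16 TPM. The log2 TPM ratio of Il34 over Csf1 was 2.95 ± 0.009 (mean and SD, n = 2), a 7.71-fold excess of Il34 over Csf1 in the same mice. Counting error was wider than that SD, with a counting interval of 2.78 to 3.13 in replicate 1 and 2.76 to 3.12 in replicate 2. In the read-based tables, another quantification of the same reads, the ratio was larger, 3.45 and 3.20. The size of the excess thus depended on the quantification, while its direction did not.

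The C1q genes were among the highest members, while C3 was close to the limit of detection. C1q is built from A, B and C chains, the products of C1qa, C1qb and C1qc. C1qb had 23.7 TPM in replicate 1 and 24.6 TPM in replicate 2, from 461 and 447 counts. C1qa had 23.1 and 21.9 TPM from 427 and 379 counts, and C1qc had 17.1 and 17.9 TPM from 372 and 363 counts. C1qb and C1qa differed by 0.10 ± 0.09 on the log2 TPM scale, and the 95% counting interval held 0 in both mice (-0.15 to 0.23 in replicate 1, -0.03 to 0.37 in replicate 2). C1qb exceeded C1qc by 0.47 in replicate 1 (interval 0.27 to 0.67) and by 0.46 in replicate 2 (0.25 to 0.66), or 1.38-fold. C1qa exceeded C1qc by 0.43 (0.23 to 0.63) and 0.29 (0.08 to 0.50). In the read-based tables, a second quantification of the same reads, C1qa was above C1qc by less, 0.15 and 0.06. No counting interval was computed for those values, so whether the order exceeds counting error there was not tested.

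C3, the central component that is cleaved and deposited on targets, had 3 counts in replicate 1 and 8 in replicate 2. Its TPM was 0.08 and 0.26. In the read-based tables its TPM was 0.20 and 1.13, from 6 and 8 estimated counts. The exact 95% Poisson interval of the counts was 0.62 to 8.77 in replicate 1 and 3.45 to 15.8 in replicate 2, and the log2 ratio between the mice was -1.30 with a counting interval of -3.98 to 0.62. No difference between the mice in C3 was detectable at this depth.

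**Figure D2:**
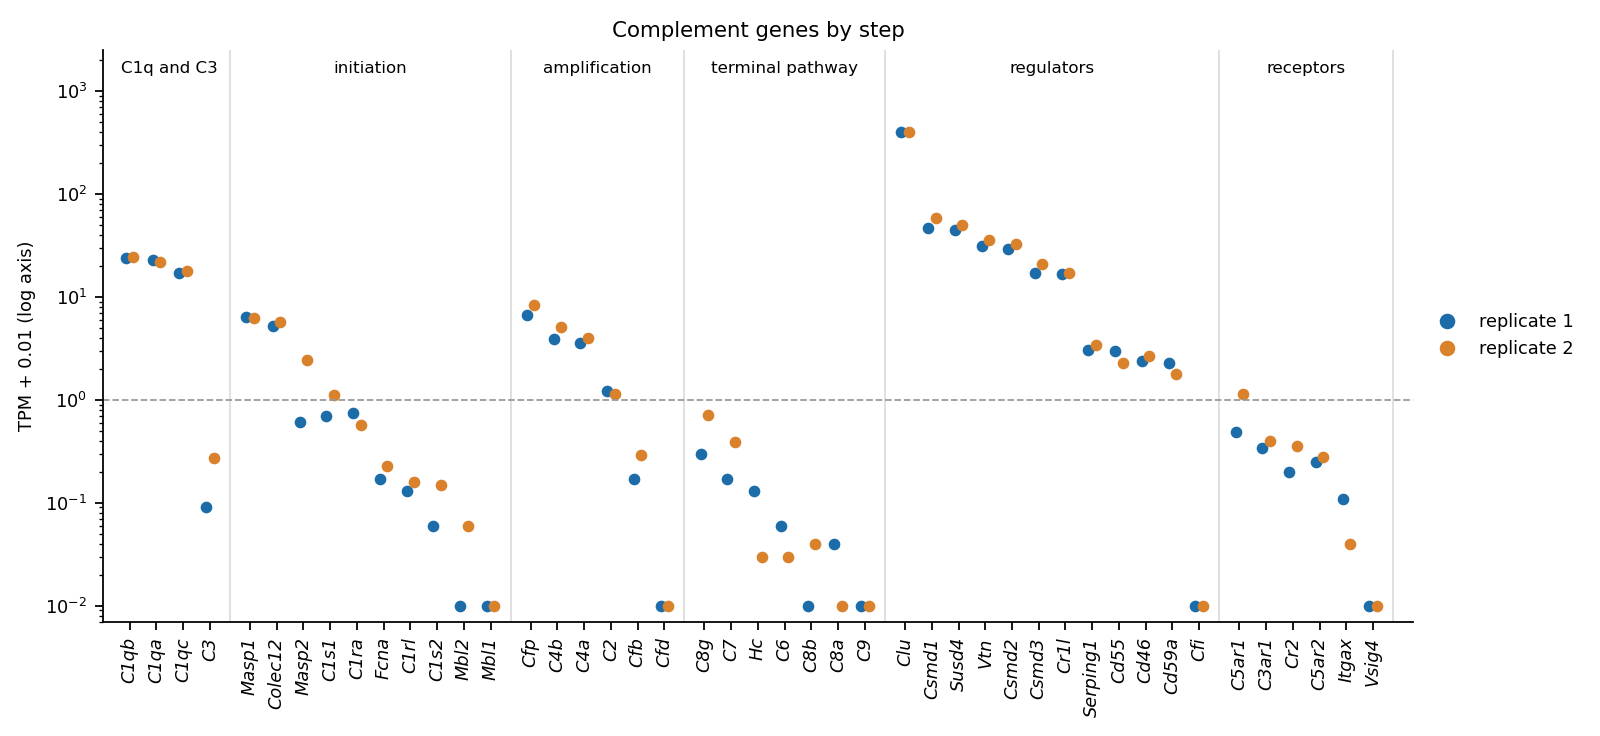
TPM (plus 0.01, log axis) of C1q, C3 and other complement genes by step of the cascade, in replicate 1 and replicate 2, with a dashed line at TPM 1. C1q and the regulators lie mostly above the line, and C3, the terminal pathway and the receptors at or below it, except C5ar1 in replicate 2.

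Around C1q and C3, the other steps of the cascade were uneven. Their counts stand beside the 58.7% of all protein-coding genes that reached TPM 1 in both mice. Of 10 genes that start it, 2 reached TPM 1 in both mice: Masp1, a serine protease of the lectin pathway, had 6.42 and 6.26 TPM, and the collectin Colec12 had 5.17 and 5.76 TPM. The proteases that bind C1q were low, with C1ra at 0.73 and 0.56 TPM and C1s1 at 0.69 and 1.10 TPM, and both have fractional counts because reads are shared with related genes, so their split is uncertain. Masp2 had 12 and 33 counts. No count was assigned to Mbl1 in either mouse, which allows up to 3 counts per library.

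Of 6 amplification genes, 4 reached TPM 1 in both mice. Properdin (Cfp), which stabilises the alternative convertase, had 6.64 and 8.29 TPM. C4b had 3.92 and 5.04 TPM and C4a had 3.54 and 3.98 TPM, near-identical genes whose counts were split between them and are uncertain singly. C2 had 1.20 and 1.12 TPM, and Cfb, the protease of the alternative convertase, had 0.16 and 0.28 TPM. The terminal pathway was nearly empty, since 0 of 7 genes reached TPM 1 and all 7 together summed to 20 counts in replicate 1 and 32 in replicate 2.

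Regulators formed the fullest step, with 12 of 13 genes at TPM 1 or more in both mice and a median of 16.6 TPM in replicate 1 and 17.1 TPM in replicate 2. Clusterin (Clu), which keeps the terminal complex soluble and is made by astrocytes, had 399 and 402 TPM. Csmd1 (46.8 and 58.4 TPM) and Susd4 (44.6 and 49.9 TPM), membrane proteins with complement-binding domains, came next, and then vitronectin (Vtn) with 31.2 and 35.5 TPM. Cr1l, the rodent membrane inhibitor Crry, had 16.6 and 17.1 TPM. Cfi, the protease that inactivates C3b and C4b, was the regulator with 0 counts in both mice. Of 6 complement receptors outside the 34 members, 0 reached TPM 1 in both mice: C5ar1 had 0.48 and 1.12 TPM and C3ar1 had 0.33 and 0.39 TPM.

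Fc receptor and TREM2 signalling genes were all above TPM 1. Fcrls, an Fc receptor-like molecule typical of mouse microglia, had 12.7 and 13.01 TPM, and Fcgr3, an activating IgG receptor, had 5.72 and 6.01 TPM. Fcgr3 was the only member without whole-number counts (133.3 and 132.15; tolerance 0.005), since some of its reads are shared with other genes, and its level is uncertain to that extent. The adaptors Tyrobp (DAP12) and Fcer1g, which carry the ITAM motif that relays these signals, had 9.56 and 11.1 TPM and 6.53 and 6.08 TPM. Trem2, the lipid receptor that pairs with Tyrobp, had 4.16 and 3.45 TPM. Tyrobp thus exceeded Trem2 by 1.44 ± 0.34 on the log2 TPM scale, in both mice. Inpp5d, the phosphatase SHIP1 that dampens the pathway, had 11.1 and 8.74 TPM.

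Of the 3 integrin and phagocytosis receptor members, Mertk had the highest TPM. Mertk, a kinase that recognises dying cells through the bridging proteins GAS6 and protein S and that astrocytes also express, had 18.3 and 17.7 TPM. Itgam (CD11b) had 4.55 and 4.51 TPM and its partner Itgb2 (CD18) had 1.70 and 1.49 TPM. The chains join one to one, but the Itgam transcript exceeded that of Itgb2 by 1.42 in replicate 1 and 1.60 in replicate 2 on the log2 TPM scale, with counting intervals above 0 in both (1.04 to 1.82 and 1.24 to 1.97).

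Transcription factors had the lowest median TPM of the roles, 1.725 in replicate 1 and 2.435 in replicate 2. Sall1, which maintains microglial identity, had 4.49 and 6.23 TPM. Irf8, a factor of the myeloid lineage, had 2.08 and 2.44 TPM, and Spi1 had 1.37 and 2.43 TPM. Runx1, active in microglial precursors, had 0.41 and 0.49 TPM from 36 and 35 counts. The Irf8 gene lies inside the readthrough model Gm20388 on the same strand, which had 4.24 and 4.55 TPM with fractional counts. Irf8 had whole-number counts (100 and 115), so its counts show no fractional sharing of reads between the 2 models. Whether reads that match both models were all given to 1 of them was not tested.

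The lysosomal and general leukocyte genes spanned more than an order of magnitude. Ctss, the lysosomal protease cathepsin S, had 25.5 and 24.6 TPM, and Laptm5, a lysosomal membrane protein, had 13.3 and 17.0 TPM. Cd68, a lysosomal glycoprotein of macrophages, had 6.69 and 6.65 TPM, and Aif1 (IBA1), the calcium-binding protein used to stain microglia, had 5.40 and 5.72 TPM. Ly86, a partner of a Toll-like receptor relative, had 4.26 and 3.96 TPM, the tetraspanin Cd53 had 4.05 and 4.07 TPM, and Ptprc (CD45) had 1.18 and 1.43 TPM. Ptprc, shared by all leukocytes, was thus the lowest of this group in both mice.

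**Figure D3:**
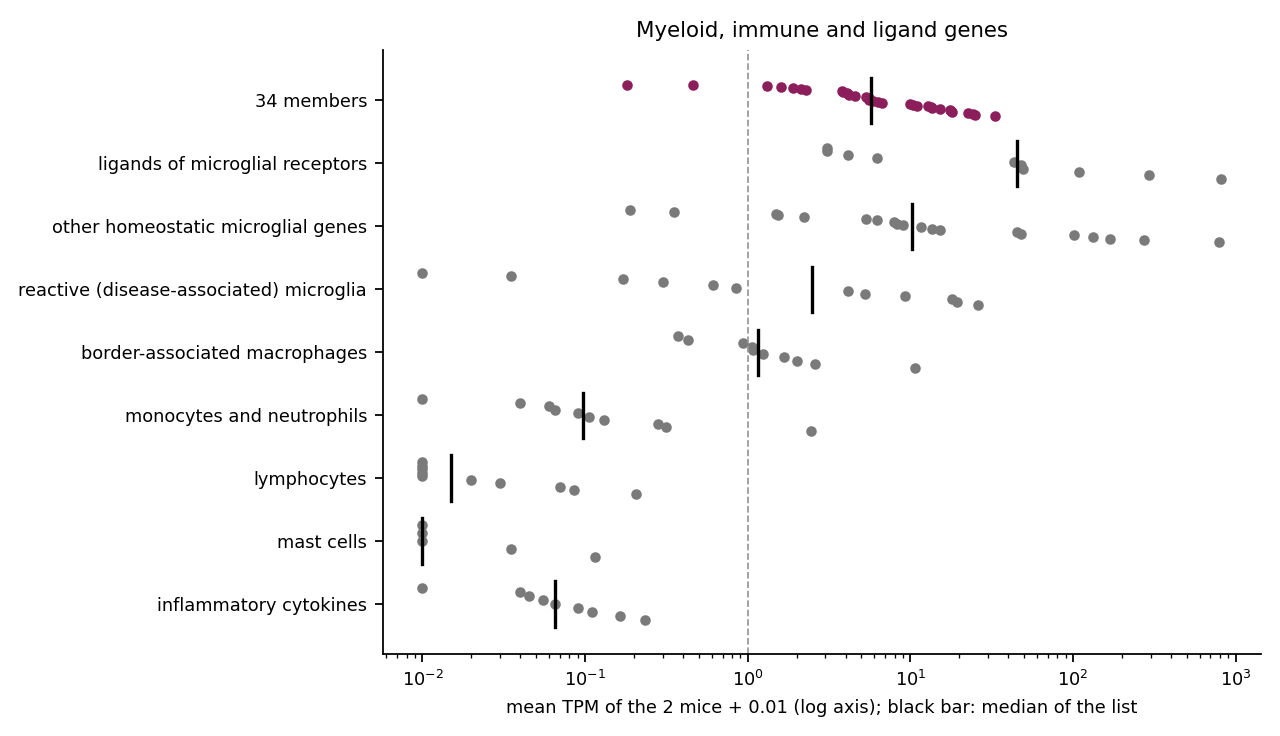
Mean TPM of both mice (plus 0.01, log axis) for the 34 members and for other gene lists, 1 point per gene, with a black bar at the median of each list and a dashed line at TPM 1. Ligands and homeostatic genes lie mostly right of the dashed line, and blood cell markers and cytokines mostly left of it.

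Other lists place the members among myeloid and immune cells. Of all protein-coding genes, 58.7% reached TPM 1 in both mice. Of 20 other homeostatic microglial genes, 18 reached TPM 1 in both mice, with a median of 9.93 and 10.6 TPM. The highest of them were Cst3 (cystatin C) with 791 and 783 TPM, Mef2c with 270 and 274 TPM and Sirpa with 166 and 170 TPM, all 3 known also from neurons or astrocytes. Of 10 genes of border-associated macrophages, which live at vessels and meninges, 4 did so, led by Stab1 (11.0 and 10.4 TPM), Mrc1 (2.29 and 2.89 TPM) and F13a1 (1.61 and 2.38 TPM). Their median was 1.31 TPM in replicate 1 and 1.11 TPM in replicate 2. What such macrophages add to genes shared with microglia was not tested.

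Blood leukocyte markers were at or near 0. Among 10 monocyte and neutrophil genes only Ly6c2 passed TPM 1 in both mice, with 2.40 and 2.49 TPM and fractional counts shared with related genes. None of 10 lymphocyte genes did, and 5 of them had 0 counts in both mice, while all 10 summed to 7 counts in replicate 1 and 9 in replicate 2. In the read-based tables some of those 5 were above 0. The highest was Cd3d, named after its values were seen, with 0.82 and 1.05 TPM. The 5 mast cell genes summed to 2 and 1 counts. Of 9 inflammatory cytokine genes 0 passed, with 23 and 22 counts in sum. Of 12 genes known to be induced in reactive microglia 6 passed, near the 58.7% of all protein-coding genes that did. The 6 were led by Cd63 (25.9 and 26.3 TPM), Cd9 (20.01 and 18.5 TPM) and Axl (17.9 and 18.4 TPM), which other brain cells express too. The other 3 that passed were Lpl (9.72 and 8.83 TPM), Spp1 (5.22 and 5.25 TPM) and Igf1 (4.37 and 3.90 TPM). Of the 6 that did not pass, Gpnmb had 23 and 41 counts, Ccl6 had 18 and 12, Ch25h had 6 and 8, and Lgals3 had 4 and 2. Cst7 had 0 counts in both mice, and Clec7a, annotated as a polymorphic pseudogene, had 1 count in each. All 12 genes are thus named, those below the highest 3 after their values were seen.

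The mice differed little over the members, and about as little over protein-coding genes in general. Of 23 members whose counts averaged 100 or more, 0 differed over 2-fold in TMM-scaled expected counts, against 0.264% of the 11722 protein-coding genes above that minimum. The log2 ratio (replicate 1 over replicate 2) had a median of 0.02 over these members and 0.04 over those genes, and the median absolute ratio was 0.09 and 0.11. A share as small as 0.264% cannot be told from 0 in 23 members. Of the 23, 20 had a ratio within 0.2 of 0, and the share of the 11722 genes within 0.2 was not computed. The counting interval lay above 0 for 2 members, P2ry12 and Mertk, against 27.1% of the 11722 genes. It lay below 0 for 3, P2ry13, Sall1 and Cx3cr1, against 12.2%. The intervals of the other 18 held 0. The 27.1% and 12.2% were not matched to the members for count, and an interval narrows as counts rise. Whether the members were steadier than other genes was therefore not tested. These directions are relative to the other genes: scaled to spike-in totals, all 23 members had ratios below 0 and the median of all 11722 genes was -0.37. P2ry12 and Mertk then had -0.22 and -0.29. Together those background shares show that the libraries differed beyond counting noise in many genes.

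P2ry13 stood apart from its neighbour. Its counts were 131 in replicate 1 and 220 in replicate 2. The log2 ratio was -0.77 with a counting interval of -1.09 to -0.45, and the read-based tables gave -0.75. An absolute ratio at least that large was found in 0.555% of the 11722 genes. P2ry12, 5389 bases away on the same strand, had a log2 ratio of 0.20 (0.03 to 0.36). The log2 TPM ratio of P2ry12 over P2ry13 was therefore 2.75 in replicate 1 (2.47 to 3.03) and 1.81 in replicate 2 (1.58 to 2.04), and the intervals of the mice did not overlap.

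The other large ratios were smaller. Sall1 had 457 and 592 counts, a log2 ratio of -0.39 (-0.57 to -0.22). Cx3cr1 had 871 and 976 counts, a ratio of -0.18 (-0.32 to -0.05), and Irf8 and Inpp5d had ratios of -0.22 and -0.14 with intervals that held 0. At the other end, Mertk had 1475 and 1332 counts, a ratio of 0.13 (0.02 to 0.23). C1qa (0.15), Ctss (0.13) and Itgam (0.12) had intervals that held 0. With 1 library a mouse, none of these values has a replicate check.

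**Figure D4:**
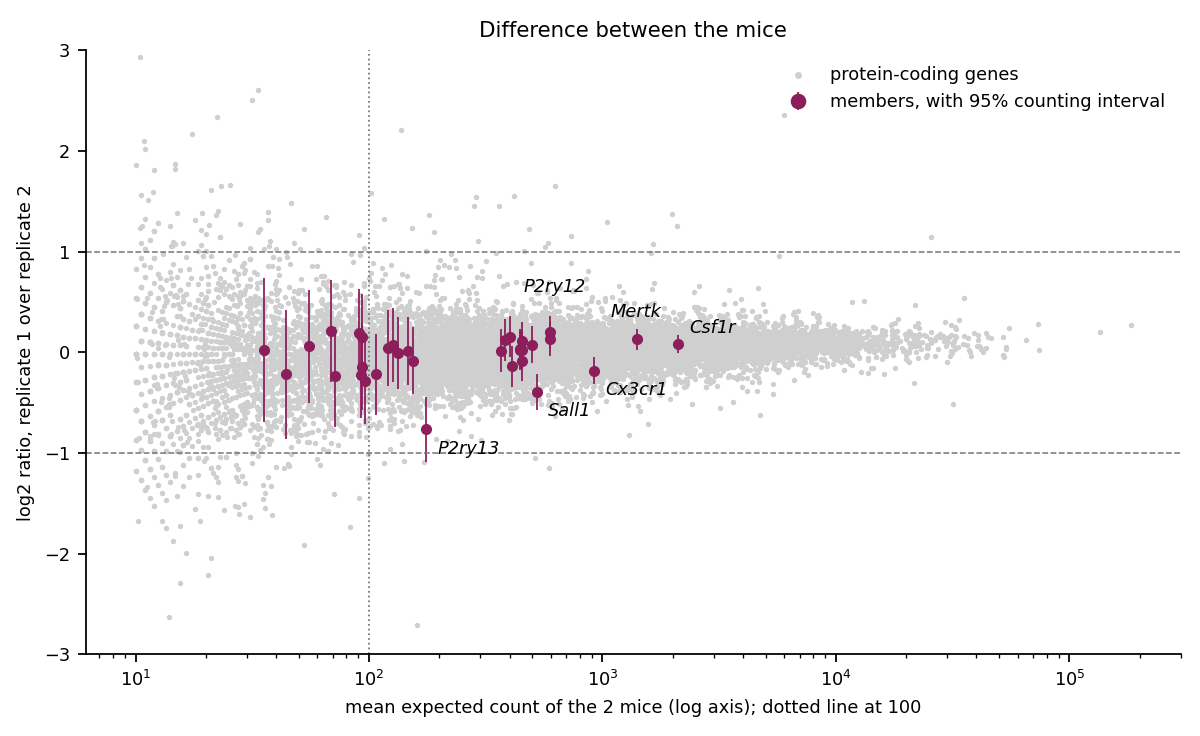
Log2 ratio of replicate 1 over replicate 2 against the mean expected count (log axis) for members averaging 10 counts or more, with 95% counting intervals, over protein-coding genes in grey, of which 15 lie beyond a ratio of 3 and outside the plot. Dashed lines mark 2-fold and the dotted line the count minimum of 100, and P2ry13 is the member farthest from 0 right of the dotted line.

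For some members TPM and counts gave different pictures of the mice. TPM divides the counts by an effective length that depends on which transcripts the reads were assigned to. After centring on all expressed protein-coding genes, the log2 TPM ratio and the log2 count ratio were over 0.3 apart in 5 of 32 expressed members, against 4.68% of expressed protein-coding genes. Laptm5 had 474 counts in replicate 1 and 434 in replicate 2, but 13.3 and 17.0 TPM, with effective lengths of 1815 and 1387 nucleotides. Hpgds had 86 and 99 counts but 2.56 and 1.70 TPM, with effective lengths of 1710 and 3164. Inpp5d (392 and 426 counts, effective lengths 1797 and 2650) and Itgb2 (66 and 77 counts, 1974 and 2804) were alike in this. For these 4 genes the higher mouse by counts was the lower by TPM. Spi1 (41 and 47 counts, 1522 and 1051) was higher in replicate 2 on both scales, by more in TPM.

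**Figure D5:**
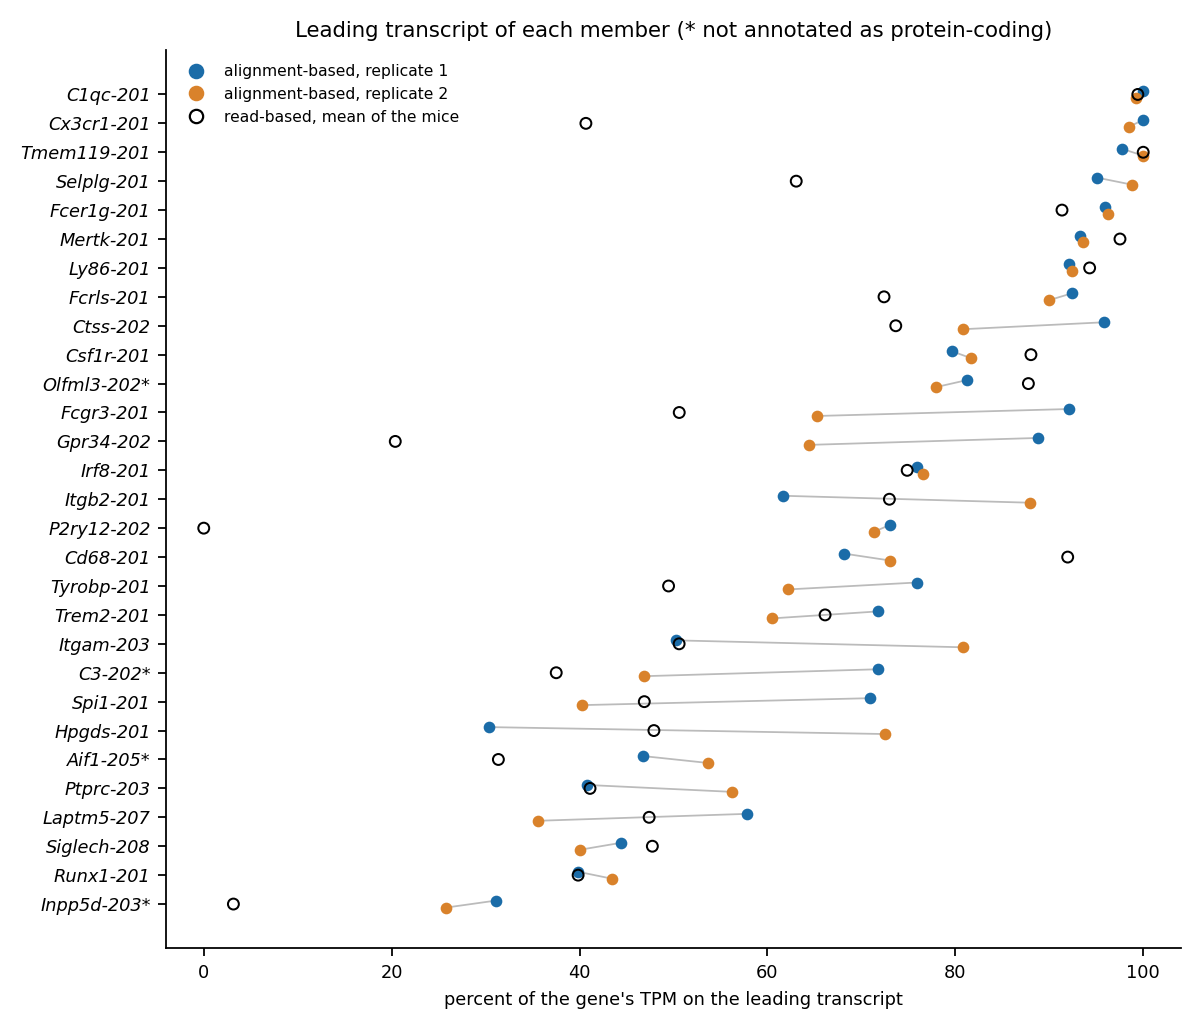
Percent of each member's TPM on its leading transcript in the alignment-based tables (replicate 1 and replicate 2) and in the read-based tables (mean of both mice, open circles), for the 29 members with several transcripts. P2ry12-202 and Inpp5d-203 have open circles near 0, and Hpgds-201 has the widest gap between the mice.

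The transcripts behind each gene were clear for some members and not for others. C1qa, C1qb, Sall1, Cd53 and P2ry13 have 1 annotated transcript, and the other 29 have several. Over those 29 the leading transcript held a median of 74.8% of the gene's TPM, and in 8 it held over 90%, as in Mertk (Mertk-201, 93.2% and 93.6%) and Fcer1g (Fcer1g-201, 96.0% and 96.2%). Among these 8, the share was lower in the read-based tables for Cx3cr1-201 (33.1% and 48.2%), Selplg-201 (72.6% and 53.5%) and Fcrls-201 (74.4% and 70.4%). For Mertk, Fcer1g, C1qc, Tmem119 and Ly86 it stayed over 90% there in both mice. Of 27 expressed members with several transcripts, 23 had the same leading transcript in both kinds of table, as did 75.9% of expressed protein-coding genes with several transcripts. The exceptions were P2ry12, Inpp5d, Aif1 and Gpr34. For P2ry12 the alignment-based tables put 73.1% and 71.4% on P2ry12-202, which held about 0% in the read-based tables, where P2ry12-201 held 68.4% and 70.0%. The leading isoform of P2ry12 was thus the same in both mice and differed between the quantifications.

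In 3 of 32 expressed members the leading transcript is not annotated as protein-coding, against 7.31% of expressed protein-coding genes. Olfml3-202, a retained-intron transcript of 3981 nucleotides, held 81.2% of Olfml3 TPM in replicate 1 and 78.0% in replicate 2, and 90.9% and 84.6% in the read-based tables. Aif1-205 (462 nucleotides, retained intron) held 46.7% and 53.7%, and Inpp5d-203 (364 nucleotides, retained intron) held 31.1% and 25.8%. The Inpp5d share rested on 18.0 and 11.0 of its 392 and 426 counts, since a short transcript turns few counts into a large TPM. Of these 3, the Olfml3 transcript was the 1 that led on average in both kinds of table.

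In Laptm5, Inpp5d, Hpgds and Spi1 the leading transcript was not the same in the mice. Hpgds-201 held 30.4% in replicate 1 and 72.5% in replicate 2, where the short retained-intron transcript Hpgds-202 had 9.10 and 0.95 counts. Spi1-204, a protein-coding model of 544 nucleotides, had 0.02 and 10.2 counts and 0.18% and 51.0% of the Spi1 TPM. Itgam kept Itgam-203 in front in both mice, with 50.2% and 80.9%. These shares are model estimates over few reads, with no replicate check.

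Levels in the 2 kinds of table were close for most members. After rescaling to nuclear protein-coding genes, 0 of 32 expressed members differed over 2-fold between the 2 quantifications, against 1.28% of expressed protein-coding genes. The median log2 ratio of alignment-based over read-based levels was 0.09 for the members and 0.07 for those genes. Inpp5d (0.53), P2ry12 (0.44) and Cd68 (0.38) were highest, and Selplg (-0.41), Spi1 (-0.38) and Aif1 (-0.34) lowest.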

How the data were processed

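Total RNA from left cerebral cortex of 2 male mice was sequenced, 1 library each. The labels describe separate animals but give 1 donor identifier, so the spread may be partly technical. The authors deposited, per the file headers, unnormalized expected counts per gene and transcript, TPM computed over every row, and each transcript's percent of its gene's TPM, quantified from a transcriptome alignment to mm10 with GENCODE M21. Further deposited transcript tables hold estimated counts and TPM quantified directly from the reads. The mice carry a B6 and a CAST genome, while the tables rest on mm10. Which aligner and quantifier were used is not given in the sources used here.

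Detection meant TPM of at least 1 in both mice. Ratios used TMM-scaled expected counts (edgeR 4.0.16, R 4.3.3) with a prior count of 0.5, for genes averaging 100 counts or more, and exact binomial 95% intervals on counts rounded to whole numbers. Read-based genes were sums over transcripts. Between-table ratios used TPM rescaled to nuclear protein-coding genes. Depth was 29915463 counts in replicate 1 and 27988085 in replicate 2, and a count of 0 allows up to 3 counts. DESeq2 1.42.0 size factors were an alternative. The ratio step was tested on simulated data. Python 3.11.15 with pandas 2.3.3 and scipy 1.17.1 did the rest. The counts and medians over lists include 1 complement gene that is not reported here. The members and lists were chosen with earlier results of these data known. All members were named; from other lists the 3 highest genes, any complement gene, and otherwise genes said to be chosen after their values were seen.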

Additional observations from a re-analysis of the deposited data

How the results depend on the processing

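Of 34 members, 20 instead of 32 passed at a TPM of 5, and other thresholds, tables and each mouse alone gave 32 or 33. The median member level, 2.77 ± 0.07 as log2(TPM + 1), was 2.57 with a pseudocount of 0.1, 3.39 in the read-based tables, 3.79 with TPM rescaled to nuclear coding genes, and 2.72 to 2.82 with a mouse left out. The median ratio between the mice, 0.02, was -0.052 with library totals and -0.39 with spike-in totals, under which all protein-coding genes had -0.37. Over 2-fold stood 1 of 23 members instead of 0 with spike-in totals (P2ry13), against 0.572% of protein-coding genes. With no count minimum it was 1 of 34 (C3), against 8.03%. All 23 of 92 recomputed single-member ratios that left their counting interval did so under spike-in totals, where all 23 were below 0 and the 15 that had been above 0 changed sign, among them P2ry12 (-0.22) and Mertk (-0.29), whose intervals had lain above 0. In the read-based tables C1qb over C1qa was 0.21, C1qb over C1qc 0.32, C1qa over C1qc 0.10 (log2), and the median share of the leading transcript, taken per mouse and then averaged, was 60.3% instead of 74.5%. The cause was not tested. Leaving out a mouse for detection and for the leading share (73.1% to 75.9%) was chosen after seeing the data, and the ratio needs both mice. No paired analysis was possible because both mice belong to 1 group. Depth limits C3, Runx1 and genes with few counts.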

Other observations

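Brain proteins that carry the globular C1q domain, but act at synapses and not in complement, were also measured. All 6 listed genes of the C1q-like and cerebellin families reached TPM 1 in both mice, as did 58.7% of all protein-coding genes. C1ql3 had 41.9 TPM in replicate 1 and 50.2 TPM in replicate 2. Cbln2 had 27.1 and 20.4 TPM and Cbln4 had 12.7 and 8.83 TPM. The highest C1q chain, C1qb, had 23.7 and 24.6 TPM, so C1ql3 stood above it in both mice and Cbln4 below it in both, while Cbln2 stood above it in replicate 1 and below it in replicate 2.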
